A study of Mus musculus with 3 samples.

Results

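The genes of asparagine, serine and one-carbon synthesis, with the transcription factor Atf4 and stress genes it is known to activate, were read on 3 arrays of sorted mouse lymphoid cells. The 10 members were named by symbol: asparagine synthetase (Asns), the serine synthesis enzymes Phgdh, Psat1 and Psph, the mitochondrial one-carbon enzymes Shmt2 and Mthfd2, Atf4, and its targets Trib3, Ddit4 and Sesn2. Of these, 9 had a probe under their symbol, 1 probe each, among 16390 genes on the array, and all 9 were detected on all 3 arrays. Phgdh had no probe under its symbol and was not analysed here.

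IL-10 Venus mice carry a reporter of Il10 expression, so that cells expressing Il10 fluoresce. The 3 populations, freshly isolated and sorted by flow cytometry, were Venus+ CD138hi cells of the bone marrow, Venus+ CD138hi cells of the spleen and B220+ cells of the spleen. Plasma cells are sorted by surface CD138, which is syndecan-1, and B cells by B220. All 3 populations carried the reporter and received no treatment that the labels record. The sources used here do not give age, sex, strain background or the number of animals per sort. Each population was hybridized to 1 single-colour array, so the differences below have no replicate check and were given no test. An array effect and a population effect cannot be told apart, and fewer cells of a type cannot be told apart from less RNA per cell.

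Asparagine synthetase makes asparagine from aspartate, with glutamine as the nitrogen donor. Serine is made from a glycolytic intermediate by Phgdh, Psat1 and Psph in turn, and Shmt2 and Mthfd2 then move a carbon of serine onto folate for purine and thymidylate synthesis. When an amino acid is scarce or the endoplasmic reticulum is loaded with unfolded protein, kinases phosphorylate eIF2alpha, translation of most mRNAs slows while that of Atf4 increases, and Atf4 activates these enzymes, amino acid transporters and stress genes. Because Atf4 is controlled to a large part in translation, its mRNA does not measure its protein. Plasma cells secrete large amounts of antibody and have a high demand for amino acids.

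Atf4 binds, with a C/ebp partner, a C/ebp-Atf response element (CARE), searched here as TGATGNAA on both strands of the 300 bases from 250 before to 50 after each annotated start site (RefSeq, GRCm38.p6). All 10 members had a promoter in this set, and 2 of them, Asns and Trib3, held a CARE. Over all 32851 promoters the share was 3.97%. The cyclic AMP response element TGACGTCA was in 1.79% of promoters and in 0 members, and the ER stress response element, CCAAT and CCACG with 9 bases between them, in 0.119% and in 0 members. The 4 promoters below are shown because they hold a CARE and belong to the members Asns and Trib3 and to 2 other Atf4 targets, Pycr1 and Chac1, whose signals are given later. Each is written 5′ to 3′ along its gene, with the CARE in capitals. They lie at chr6:7693160-7693459 on the minus strand (Asns), chr2:152344011-152344310 on the minus strand (Trib3), chr11:120643699-120643998 on the minus strand (Pycr1) and chr2:119350992-119351291 on the plus strand (Chac1).
Asns: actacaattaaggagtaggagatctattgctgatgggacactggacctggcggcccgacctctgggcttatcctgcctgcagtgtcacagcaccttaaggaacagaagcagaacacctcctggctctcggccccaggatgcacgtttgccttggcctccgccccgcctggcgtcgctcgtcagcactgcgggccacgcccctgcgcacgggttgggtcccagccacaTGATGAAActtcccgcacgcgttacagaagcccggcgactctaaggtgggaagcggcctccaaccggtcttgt
Trib3: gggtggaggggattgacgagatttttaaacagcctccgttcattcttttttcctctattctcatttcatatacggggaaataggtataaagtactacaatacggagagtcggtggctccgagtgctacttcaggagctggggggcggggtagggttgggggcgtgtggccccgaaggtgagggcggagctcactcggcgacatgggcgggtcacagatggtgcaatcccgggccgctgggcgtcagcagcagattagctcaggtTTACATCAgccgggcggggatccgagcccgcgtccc
Pycr1: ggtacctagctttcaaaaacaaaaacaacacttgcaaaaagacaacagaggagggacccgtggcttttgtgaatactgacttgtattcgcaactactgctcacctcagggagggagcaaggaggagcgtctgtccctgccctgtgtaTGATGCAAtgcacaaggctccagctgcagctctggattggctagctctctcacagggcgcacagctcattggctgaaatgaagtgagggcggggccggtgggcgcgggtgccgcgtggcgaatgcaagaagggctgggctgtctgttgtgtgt
Chac1: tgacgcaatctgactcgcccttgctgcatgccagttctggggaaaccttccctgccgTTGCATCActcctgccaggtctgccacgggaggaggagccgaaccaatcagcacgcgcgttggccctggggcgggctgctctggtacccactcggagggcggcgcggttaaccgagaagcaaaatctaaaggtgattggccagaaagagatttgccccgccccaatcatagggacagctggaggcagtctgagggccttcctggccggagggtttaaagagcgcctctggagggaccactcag
The Asns match, TGATGAAA, lay 23 to 16 bases before the start site on the strand of the gene. That of Pycr1, TGATGCAA, lay 103 to 96 bases before it on the strand of the gene. The Chac1 match lay 193 to 186 bases before the start site on the opposite strand, also as TGATGCAA. In Trib3 the match was TGATGTAA on the opposite strand, 15 to 22 bases after the start site. On the opposite strand the capitals are the reverse complement of the match. A match is a description of these letters and not a measured binding site.

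Signals are background-subtracted spot intensities scaled so that the median detected probe of each array has 25. They compare 1 probe between arrays, not 1 probe with another. A gene is called higher or lower where both arrays detected it and the signals differ at least 2-fold. Each log2 ratio is printed with its spot error, which comes from the blank spots and the repeated control spots and is not the spread between replicates. Of 23473 probes, 67.6% were detected in bone marrow Venus+ cells, 73.4% in spleen Venus+ cells and 72.1% in B220+ cells. The plasma cell markers followed the sort, with 8 of 8 genes measured on both arrays higher in each Venus+ population than in B220+ cells, and Tnfrsf17 detected in the Venus+ cells alone. B cell markers summed to 4445, 10861 and 29632 in bone marrow Venus+, spleen Venus+ and B220+ cells. Markers of other cells also moved. The T cell markers summed to 1650, 1318 and 55.2, the granulocyte markers to 224.5, 29.1 and 5066, the monocyte and macrophage markers to 282, 154 and 77.8, the erythroid markers to 58.8, 55.4 and 351, and the cell cycle markers to 870, 1546 and 3274, in the same order. Cd247, with 1038, 637 and 15.7, and Cd28, with 477, 528 and 5.52, made up most of the T cell sums in the Venus+ populations, while Lat and Cd8a differed less than 2-fold from B220+ cells. Of 8 T cell markers measured on both arrays 5 were higher and 0 lower in spleen Venus+ than in B220+ cells. Of 7 in bone marrow Venus+ cells 5 were higher and 0 lower. Cd3d had 24.5, 39.3 and 7.89, and Cd8b1 53.4, 18.4 and 5.64, in the same order. Cd3e and Cd3g were not detected in B220+ cells, where Cd3g had 8.95 in bone marrow Venus+ and 55.7 in spleen Venus+ cells. Zap70 was not detected in bone marrow Venus+ cells. S100a8 and S100a9 made up most of the granulocyte sum in B220+ cells, and Mpo went the other way, with 29.8 in bone marrow Venus+ and 2.22 in B220+ cells and no detection in spleen Venus+ cells. The part of other cells in any result below was not tested. The folds depend on the background correction. Normexp correction was run with an offset of 50 added to every spot, which lifts dim signals and draws their ratios toward no difference. Of 108 values of 2-fold or more for the named genes other than members, it put 60 under 2-fold. A fall under 2-fold with normexp does not by itself show that a dim gene is level. Normexp also lowered the counts of called genes over all genes, as given in the section on processing.

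Asns was far higher in both Venus+ populations than in B220+ cells, and it was the single member past 2-fold in either comparison. Its normalized signal was 241 in bone marrow Venus+ cells, 176 in spleen Venus+ cells and 2.81 in B220+ cells. Against B220+ cells the signal was 62.6-fold higher in spleen Venus+ cells (log2 ratio 5.97 ± 0.37, spot error) and 85.7-fold higher in bone marrow Venus+ cells (6.42 ± 0.37). Of 11618 genes measured on both arrays, 27 had a higher ratio than Asns in the spleen comparison, and 31 of 10813 did in the bone marrow comparison. Between the Venus+ populations Asns differed 1.37-fold, higher in bone marrow (0.45 ± 0.11), but the ratio was -0.18 with normexp.

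**Figure D1:**
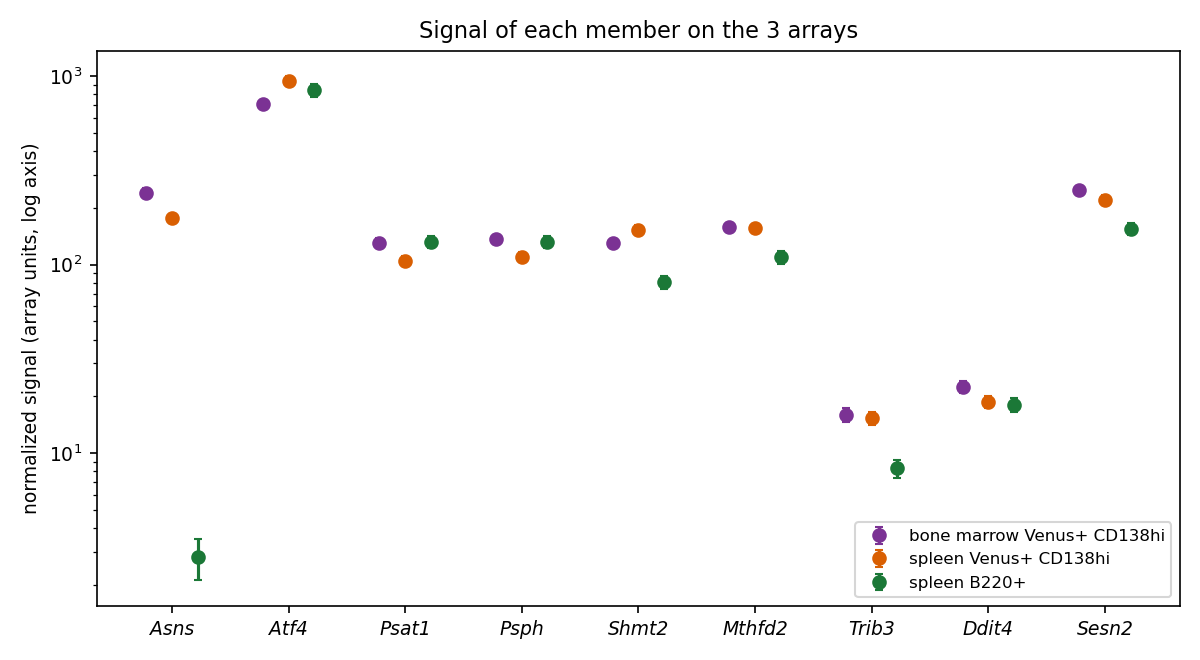
Normalized signal (log scale) of the 9 members with a probe in bone marrow Venus+ CD138hi, spleen Venus+ CD138hi and spleen B220+ cells, 1 array and 1 point each, with spot error bars. Asns stands at 241 and 176 in the Venus+ populations and at 2.81 in B220+ cells, while each of the other 8 genes differs less than 2-fold between any pair of arrays.

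The size of these Asns folds rests on a B220+ spot close to the background. The Asns spot read 297.5 in bone marrow Venus+, 266.9 in spleen Venus+ and 49.0 in B220+ cells, and the detection limit of the B220+ array was 46.2. On that array 68 of 1102 empty spots (6.17%) and 21 of 2736 blank spots (0.768%) were as bright as the Asns spot, while none was on the other 2 arrays. With normexp correction the log2 ratio of Asns came to 1.60 in the spleen comparison and 1.43 in the bone marrow comparison. Asns was at least 2-fold higher in both comparisons in 6 of 6 settings that changed the background, the scaling or the detection limit, with log2 ratios between 1.60 and 7.28 in the spleen and between 1.43 and 7.64 in the bone marrow comparison.

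**Figure D2:**
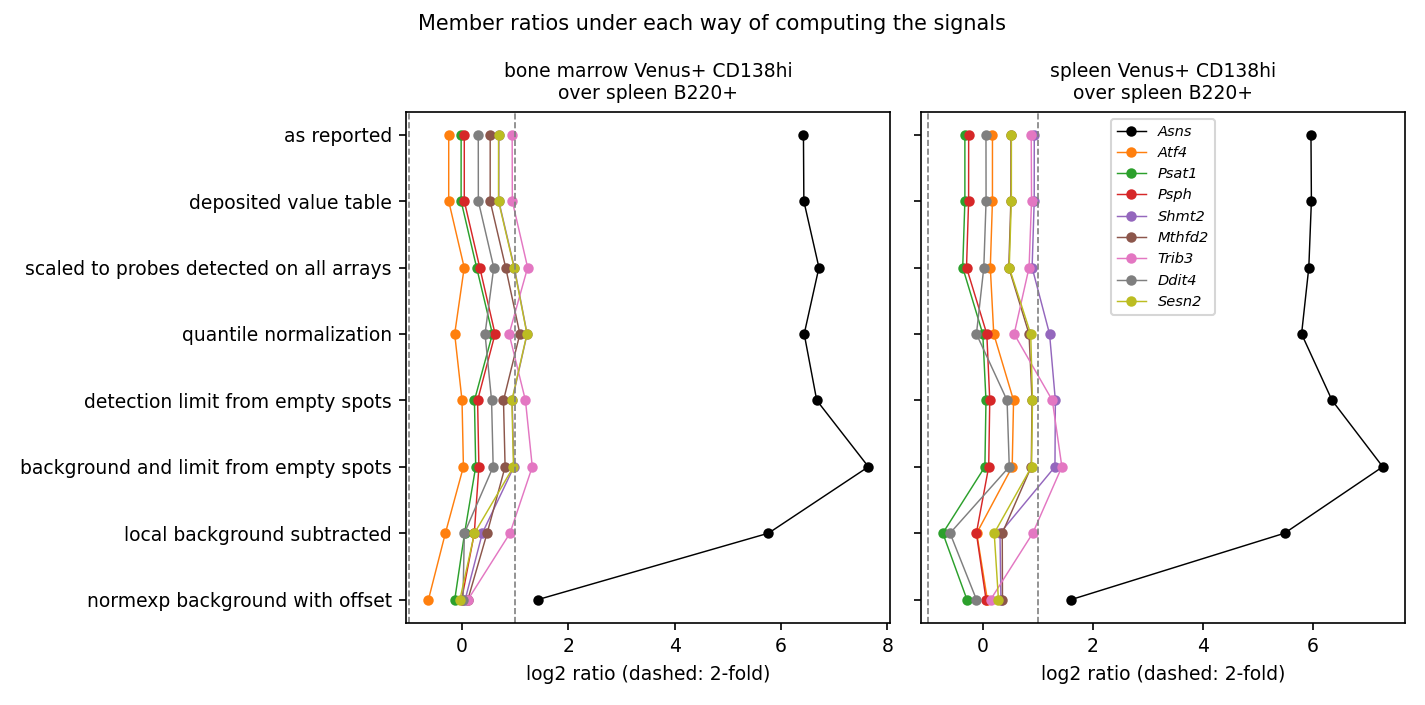
Log2 ratio of the 9 members in both comparisons of Venus+ with B220+ cells as reported and under 7 other settings of background, scaling and detection, with a line joining the values of a gene. Asns stays above the 2-fold line in each of them, at 1.43 to 7.64, and the normexp correction gives its lowest value in both comparisons.

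Atf4 mRNA did not move with Asns mRNA. Its signal was 708 in bone marrow Venus+ cells, 948 in spleen Venus+ cells and 842 in B220+ cells. Spleen Venus+ cells lay highest and bone marrow Venus+ cells lowest, within 1.34-fold of each other. The log2 ratio was 0.17 ± 0.14 for spleen Venus+ against B220+ cells, -0.25 ± 0.13 for bone marrow Venus+ against B220+ cells and -0.42 ± 0.11 between bone marrow and spleen Venus+ cells. In the bone marrow comparison with B220+ cells the sign of the Atf4 ratio was positive in 3 of these 6 settings, and its size stayed under 2-fold in all 6.

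The serine synthesis enzymes were nearly level. Psat1, the aminotransferase of the pathway, had signals of 130.7 in bone marrow Venus+, 105.1 in spleen Venus+ and 132.2 in B220+ cells. Psph, the phosphatase of the last step, had 136.0, 110.0 and 132.0 in the same populations. For both genes spleen Venus+ cells were lowest, and bone marrow Venus+ and B220+ cells differed by less than 1 spot error. Against B220+ cells, the log2 ratio in spleen Venus+ cells was -0.33 ± 0.14 for Psat1 and -0.26 ± 0.14 for Psph, and in bone marrow Venus+ cells -0.02 ± 0.13 and 0.04 ± 0.13. The spleen ratio was positive in 2 of the 6 settings for Psat1, at most 0.05, and in 4 of 6 for Psph, at most 0.12, so neither gene has a settled direction.

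The mitochondrial one-carbon enzymes were moderately higher in Venus+ cells, under the 2-fold line. Shmt2, which splits serine into glycine and a one-carbon unit, had signals of 130.1 in bone marrow Venus+, 153.5 in spleen Venus+ and 80.4 in B220+ cells. Its log2 ratio against B220+ cells was 0.93 ± 0.14 in spleen Venus+ cells, a 1.91-fold difference, and 0.69 ± 0.13 in bone marrow Venus+ cells. Mthfd2, which oxidizes the folate-bound unit, had 158.3 in bone marrow Venus+, 155.8 in spleen Venus+ and 109.6 in B220+ cells. The log2 ratios of Mthfd2 against B220+ cells were 0.53 ± 0.13 in bone marrow and 0.51 ± 0.14 in spleen Venus+ cells. Shmt2 passed 2-fold in 3 of the 6 settings in the spleen and in 1 of 6 in the bone marrow comparison, Mthfd2 in 0 in the spleen and in 1 of 6 in the bone marrow comparison. With normexp the log2 ratios in spleen and bone marrow Venus+ cells were only 0.33 and 0.06 for Shmt2 and 0.35 and 0.11 for Mthfd2.

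Among the stress targets, Trib3 and Sesn2 were higher in Venus+ than in B220+ cells by less than 2-fold. Trib3, a pseudokinase of the tribbles family, had signals of 16.0 in bone marrow Venus+, 15.3 in spleen Venus+ and 8.33 in B220+ cells, with log2 ratios of 0.94 ± 0.21 and 0.88 ± 0.20 for bone marrow and spleen Venus+ cells against B220+ cells. Sesn2, a leucine-binding inhibitor of mTORC1 signalling, had 248.9 in bone marrow Venus+, 220.9 in spleen Venus+ and 154.5 in B220+ cells (0.69 ± 0.13 and 0.52 ± 0.14 against B220+ cells). Ddit4, another inhibitor of mTORC1, had 22.4 in bone marrow Venus+, 18.8 in spleen Venus+ and 18.1 in B220+ cells, and its ratios, 0.31 ± 0.16 and 0.05 ± 0.16, lay within 2 spot errors of 0. Trib3 passed 2-fold in 2 of the 6 settings in the spleen and in 3 of 6 in the bone marrow comparison. With normexp its log2 ratios were 0.14 and 0.11. Sesn2 passed 2-fold in 0 and 1, and its bone marrow ratio was -0.04 with normexp.

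**Figure D3:**
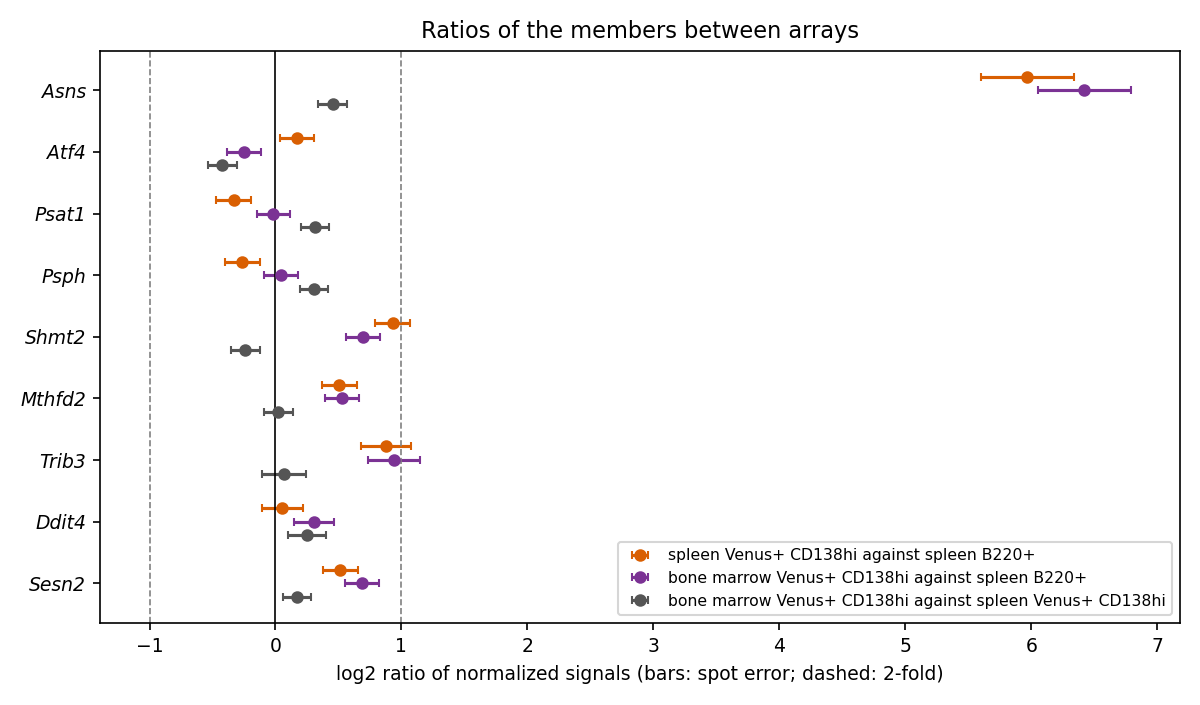
Log2 ratio of each member for the 3 pairs of populations, with spot error bars, with the 2-fold lines and the line of no difference marked. Asns lies at 5.97 and 6.42 against B220+ cells, and the other 8 genes lie between -0.33 and 0.94 in those 2 comparisons.

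Of the 9 members, 1 was higher and 0 were lower in spleen Venus+ than in B220+ cells, where 15.7% of 11618 genes were higher and 16.5% lower. The counts were the same in bone marrow Venus+ against B220+ cells, where 22.4% of 10813 genes were higher and 30.7% lower. Between bone marrow and spleen Venus+ cells 0 of 9 members passed 2-fold in either direction, beside 4.33% of 11352 genes that were higher and 15.2% lower in bone marrow. A share of 1 in 9 is near the background, so the count shows nothing particular about the group. The median log2 ratio of the members was 0.51, 0.53 and 0.17 in the 3 comparisons, against medians of -0.02, -0.24 and -0.17 over all genes. Without Asns the median of the other 8 was 0.34 in the spleen and 0.42 in the bone marrow comparison with B220+ cells, with 6 of 8 above 0 in each. In these comparisons 6 and 7 of 8 lay above the median of all genes. In either direction 5 and 4 of 8 lay beyond 2 spot errors of 0, and Psat1 in the spleen comparison was the one below 0. The share of all genes beyond 2 spot errors was not counted. The 2 comparisons with B220+ cells share that array, so their likeness is not independent evidence.

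The bone marrow comparisons depend on the scaling. When the arrays were scaled to probes detected on all 3, the all-gene median of bone marrow Venus+ against B220+ cells moved to 0.05, and the share of higher among called genes was 53.9%, against 42.2% in the deposited scaling. For bone marrow against spleen Venus+ cells the share was 57.7% with that scaling, 50.9% with quantile normalization and 22.2% in the deposited scaling. Relative to the median of all genes, that of the members was 0.77 in bone marrow Venus+ against B220+ cells and 0.35 in bone marrow against spleen Venus+ cells. In spleen Venus+ against B220+ cells the higher share was 48.8%, and 70.4% with a detection limit from the empty spots.

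**Figure D4:**
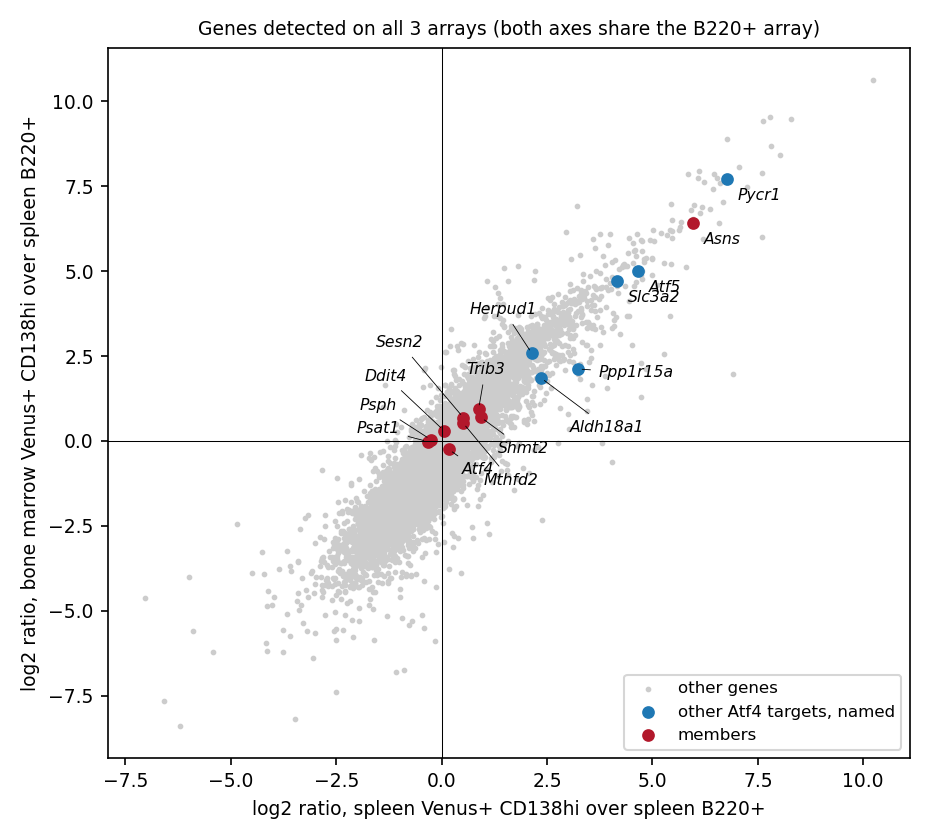
Log2 ratio of each gene detected on all 3 arrays, for spleen Venus+ against B220+ cells (x) and bone marrow Venus+ against B220+ cells (y), with members in red and named Atf4 targets in blue. Asns lies at 5.97 and 6.42 near the upper right end with Pycr1 (6.78 and 7.71), and the other 8 members lie in the centre of the cloud; both axes share the B220+ array.

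Among other genes that Atf4 is known to activate, more were higher than lower in Venus+ cells against B220+ cells. In spleen Venus+ cells 12 of the 22 targets measured on both arrays were higher and 1 was lower (median log2 ratio 1.10), beside 15.7% and 16.5% of all genes. Of the 33 with a probe, 5 were detected in spleen Venus+ cells and not in B220+ cells, and 1 the other way, beside 804 and 547 of 16390 genes. Of the 5, Chac1 had 123.2 in spleen Venus+ cells. Nupr1, Cth, Gpt2 and Vegfa had 2.18 to 4.21 there, where the lowest detected signal was 1.74. In bone marrow Venus+ cells 11 of 22 were higher and 3 lower than in B220+ cells (median 0.90), beside 22.4% and 30.7%. Under the normexp correction 4 and 3 targets were higher in these comparisons. The counts of higher genes over all genes fell with it as well, so this fall is not particular to the targets. Between the Venus+ populations 0 of 23 were higher and 3 lower in bone marrow (median -0.16), beside 4.33% and 15.2% of all genes.

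Pycr1, which makes proline in mitochondria, had signals of 997.5 in bone marrow Venus+, 522 in spleen Venus+ and 4.76 in B220+ cells. Its log2 ratio against B220+ cells was 7.71 ± 0.24 in bone marrow and 6.78 ± 0.25 in spleen Venus+ cells, and 3.82 and 3.22 with normexp. Chac1, which degrades glutathione, had 130.7 in bone marrow Venus+ and 123.2 in spleen Venus+ cells and was not detected in B220+ cells, so it was at least 97.3-fold and at least 91.7-fold higher. Between bone marrow and spleen Venus+ cells the log2 ratio of Chac1 was 0.09, but 2.66 with the local background subtracted and 0.73 with normexp. These 2 genes lay with Asns among the targets that were bright in both Venus+ populations and at or near the background in B220+ cells.

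Atf5, a factor related to Atf4, had signals of 107 in bone marrow Venus+, 85.6 in spleen Venus+ and 3.37 in B220+ cells, with log2 ratios against B220+ cells of 4.99 ± 0.32 in bone marrow and 4.67 ± 0.32 in spleen Venus+ cells. Under the normexp correction the Atf5 ratios were 0.51 in bone marrow and 0.99 in spleen Venus+ cells, under 2-fold. Herpud1, a factor of degradation at the endoplasmic reticulum, was 5.97-fold higher in bone marrow and 4.41-fold higher in spleen Venus+ cells than in B220+ cells. Ppp1r15a, the subunit that directs a phosphatase to eIF2alpha, had 88.1 in bone marrow Venus+, 190.6 in spleen Venus+ and 20.3 in B220+ cells, and was also lower in bone marrow than in spleen Venus+ cells (log2 ratio -1.11 ± 0.11).

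The target set was not uniform. Gadd45a, a stress gene tied to DNA damage, had signals of 9.01 in bone marrow Venus+, 25.0 in spleen Venus+ and 128.3 in B220+ cells, 14.2-fold and 5.14-fold lower in the Venus+ populations. Ddit3, which codes for the stress factor CHOP, had 329 in bone marrow Venus+, 266 in spleen Venus+ and 363 in B220+ cells, and its ratios of -0.14 ± 0.13 and -0.45 ± 0.14 were under 2-fold. Ero1a, an oxidase of the endoplasmic reticulum, was 2.44-fold lower in bone marrow Venus+ cells than in B220+ cells, but its log2 ratio was -0.04 with normexp. The CARE was in 9 of the 30 targets with a promoter, beside 4.51% of all genes. Herpud1, Pycr1 and Chac1 were among them. The others were Pck2, level at log2 ratios of -0.07 in bone marrow and 0.09 in spleen Venus+ cells, Atf3 and Vldlr, detected on no array, Nupr1, detected in spleen Venus+ cells alone, and the dim Fgf21 and Jdp2. No match was found in either Atf5 window.

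**Figure D5:**
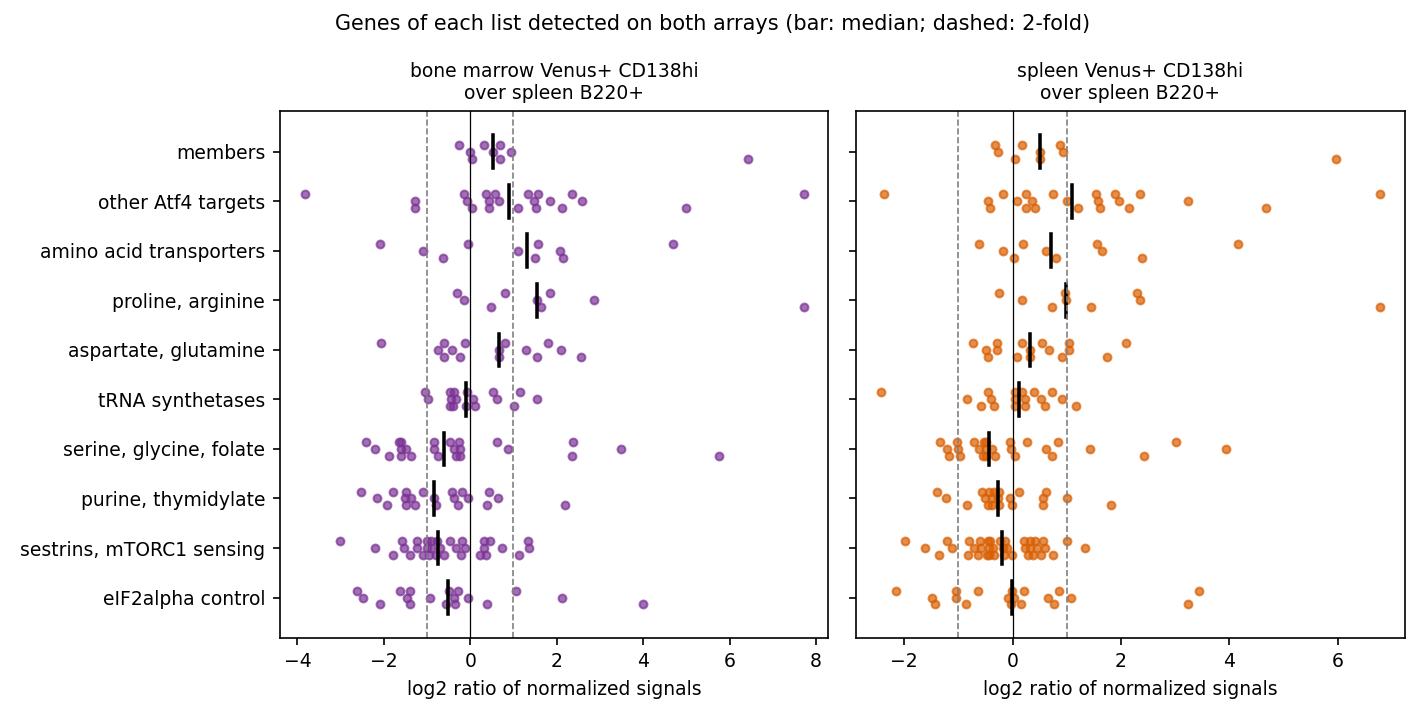
Log2 ratio of each gene in the members and the related lists, for both Venus+ populations against B220+ cells, with 1 point per gene detected on both arrays and a bar at the median. The medians of the other Atf4 targets lie at 1.10 in spleen and 0.90 in bone marrow Venus+ cells, and those of serine, glycine and folate genes at -0.43 and -0.62.

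Amino acid transporters under Atf4 were split. In spleen Venus+ cells 4 of 10 were higher and 0 lower than in B220+ cells (median 0.71), beside 15.7% and 16.5% of all genes. Another 4 were detected in spleen Venus+ cells and not in B220+ cells, and 0 the other way, beside 804 and 547 of 16390 genes. Of the 4, Slc7a1 (1.78) and Slc36a4 (1.81) lay close to the lowest detected signal in spleen Venus+ cells, 1.74. In bone marrow Venus+ cells 6 of 10 were higher and 2 lower (median 1.30), beside 22.4% and 30.7%. Slc3a2, the heavy chain that carries several amino acid exchangers to the cell surface, had signals of 4210 in bone marrow Venus+, 2915 in spleen Venus+ and 162 in B220+ cells, 25.9-fold and 18.0-fold higher in the Venus+ populations. Slc7a5, a light chain that pairs with it to import leucine and other large amino acids, was 3.13-fold higher in spleen Venus+ than in B220+ cells, but its sign turned with normexp and with the local background subtracted. Slc6a9, a glycine transporter, was 4.43-fold higher in bone marrow and 5.21-fold higher in spleen Venus+ cells than in B220+ cells. With normexp the log2 ratios of Slc6a9 were 0.25 and 0.34, under 2-fold. The glutamine carriers Slc38a1 and Slc1a5 were lower in bone marrow Venus+ cells than in either other population. Slc38a1 had 29.4 in bone marrow Venus+, 80.7 in spleen Venus+ and 124.3 in B220+ cells, and Slc1a5 had 139.9, 304.1 and 297.3. With normexp 1 transporter was higher in each comparison, and with the local background subtracted 2 were. The normexp counts of higher genes fell over all genes too.

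The enzymes that supply or use aspartate, glutamine and asparagine moved less than Asns. Of 16 measured on both arrays 4 were higher and 0 lower in spleen Venus+ than in B220+ cells (median 0.32), beside 15.7% and 16.5% of all genes. Of 15 in bone marrow Venus+ cells 5 were higher and 1 lower (median 0.66), beside 22.4% and 30.7%. The aspartate aminotransferases had log2 ratios in bone marrow and spleen Venus+ cells of -0.61 and -0.50 for the cytosolic Got1, and of 0.81 and 1.04 for the mitochondrial Got2, and the spleen ratio of Got2 turned negative with normexp and with the local background subtracted. Asl, argininosuccinate lyase, was 4.29-fold higher in bone marrow and 3.36-fold higher in spleen Venus+ cells than in B220+ cells. Gfpt1, which spends glutamine on hexosamine synthesis, was 3.46-fold and 4.28-fold higher. With normexp the log2 ratios in bone marrow and spleen Venus+ cells were 0.37 and 0.11 for Asl and 0.18 and 0.30 for Gfpt1, under 2-fold. Glud1, glutamate dehydrogenase, had signals of 94.0 in bone marrow Venus+, 240 in spleen Venus+ and 396.5 in B220+ cells. Nars, the cytosolic synthetase that loads asparagine onto its tRNA, had 374 in bone marrow Venus+, 241 in spleen Venus+ and 129 in B220+ cells, 2.90-fold and 1.87-fold higher in the Venus+ populations.

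Proline and arginine enzymes were higher in 5 of 9 and lower in 0 of 9 in bone marrow Venus+ against B220+ cells (median 1.53), beside 22.4% and 30.7% of all genes. They were higher in 4 of 9 and lower in 0 of 9 in spleen Venus+ against B220+ cells (median 0.98), beside 15.7% and 16.5%. Besides Pycr1 the higher enzymes included Aldh18a1, which opens proline synthesis from glutamate, at 54.2 in bone marrow Venus+, 76.7 in spleen Venus+ and 15.0 in B220+ cells. With normexp the log2 ratios of Aldh18a1 against B220+ cells were 0.31 in bone marrow and 0.65 in spleen Venus+ cells, under 2-fold. Srm, spermidine synthase, was 7.30-fold higher in bone marrow and 4.90-fold higher in spleen Venus+ cells than in B220+ cells. With normexp 2 and 1 genes of this list were higher in these comparisons, and the counts over all genes fell as well.

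The wider serine, glycine and folate genes were called about as often as all genes. In spleen Venus+ cells 4 of 26 were higher and 4 lower than in B220+ cells (median -0.43), beside 15.7% and 16.5% of all genes. In bone marrow Venus+ cells 4 of 24 were higher and 9 lower (median -0.62), beside 22.4% and 30.7%. Ggh, which trims the glutamate tail of folates in lysosomes, had signals of 2065 in bone marrow Venus+, 582 in spleen Venus+ and 38.0 in B220+ cells, 54.3-fold and 15.3-fold higher in the Venus+ populations and 3.55-fold higher in bone marrow than in spleen. Srr, serine racemase, was 11.2-fold and 8.08-fold higher in bone marrow and spleen Venus+ cells than in B220+ cells, and Gcat, which works in threonine breakdown to glycine, 5.22-fold and 5.40-fold. With normexp the log2 ratios of Gcat were 0.12 and 0.24, under 2-fold. Mthfd1l, the mitochondrial enzyme that releases formate after Mthfd2, had 2.89 in bone marrow Venus+, 9.19 in spleen Venus+ and 13.4 in B220+ cells (log2 ratio of bone marrow Venus+ against B220+ cells -2.21 ± 0.61). That ratio was -0.03 with normexp and -0.48 with the local background subtracted. With the detection limit from empty spots Mthfd1l was not detected in bone marrow Venus+ cells. Shmt1, the cytosolic relative of Shmt2, had 6.43 in spleen Venus+ and 9.07 in B220+ cells but lay under the detection limit in bone marrow, at least 3.86-fold lower there than in B220+ cells. Mtrr, which reactivates methionine synthase, was 5.32-fold lower in bone marrow Venus+ cells than in B220+ cells, and Dld, a subunit of the glycine cleavage system among others, 3.12-fold lower. With normexp the log2 ratio was -0.13 for Mtrr and -1.47 for Dld. The count of lower genes in the bone marrow comparison was 4 with the local background subtracted and 2 with normexp, and in the spleen comparison it was 0 with the detection limit from empty spots.

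The enzymes of purine, thymidylate and pyrimidine nucleotide synthesis were lower in 10 of 21 and higher in 1 of 21 in bone marrow Venus+ against B220+ cells (median -0.83), beside 30.7% and 22.4% of all genes. In spleen Venus+ cells 2 of 21 were higher and 2 lower (median -0.27), beside 15.7% and 16.5% of all genes. Most of these enzymes do not themselves take up a one-carbon unit. Of those that do, named after their values were seen, Gart had a log2 ratio of -1.49, Atic of -0.29 and Tyms of -0.20 in bone marrow Venus+ against B220+ cells. Adss, an adenylosuccinate synthase of purine synthesis, had signals of 23.1 in bone marrow Venus+, 110.3 in spleen Venus+ and 133.4 in B220+ cells. Prps2, which makes the ribose donor, was 3.44-fold lower and Ctps2, a CTP synthase, 4.46-fold lower in bone marrow Venus+ cells than in B220+ cells, while Adssl1, a paralog of Adss, was 4.60-fold higher. With normexp the log2 ratio in bone marrow Venus+ against B220+ cells was 0.67 for Adssl1, -0.87 for Adss and -0.49 for Prps2, under 2-fold. The cell cycle markers were lower in 12 of 14 and 9 of 16 in bone marrow and spleen Venus+ cells than in B220+ cells, and their part in these differences was not tested. With quantile normalization 5 of the 21 enzymes were lower in the bone marrow comparison, and with normexp 3.

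Upstream of Atf4, a list held eIF2alpha kinases, phosphatase subunits, their regulators and subunits of eIF2 and eIF2B. Of its genes 3 of 19 were higher and 5 lower in spleen Venus+ than in B220+ cells (median -0.00), beside 15.7% and 16.5% of all genes. In bone marrow Venus+ cells 3 of 18 were higher and 7 lower (median -0.53), beside 22.4% and 30.7%. These counts are not far from the background. Dnajc3, an inhibitor of the kinase that senses unfolded protein, had signals of 1199 in bone marrow Venus+, 822 in spleen Venus+ and 75.6 in B220+ cells. Eif2ak4, the kinase that senses amino acid shortage, had 27.2 in bone marrow Venus+, 56.7 in spleen Venus+ and 152 in B220+ cells, and Eif2ak3, the kinase that senses unfolded protein, had 160, 241 and 494. Ppp1r15b, the constitutive partner of the eIF2alpha phosphatase, was 4.27-fold and 2.82-fold lower in bone marrow and spleen Venus+ cells than in B220+ cells, and Ppp1cb, a catalytic subunit, 6.12-fold and 4.43-fold lower. With normexp 3 genes of this list were lower in the bone marrow and 2 in the spleen comparison, and the counts over all genes fell as well. Under that correction the log2 ratios in bone marrow and spleen Venus+ cells were -0.44 and -0.43 for Eif2ak4 and -0.91 and -0.53 for Ppp1r15b, under 2-fold. Phosphorylation was not measured by these arrays.

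The relatives of Sesn2 and Trib3 did not move as 1 group. Sesn1 had signals of 36.0 in bone marrow Venus+, 96.4 in spleen Venus+ and 293 in B220+ cells, 8.14-fold and 3.04-fold lower in the Venus+ populations, but both signs turned with normexp and with the local background subtracted. Sesn3 had 21.2 in spleen Venus+ and 54.6 in B220+ cells but lay under the detection limit in bone marrow, at least 23.2-fold lower there than in B220+ cells. Trib1 had 119.8 in bone marrow Venus+, 184 in spleen Venus+ and 16.8 in B220+ cells, 7.15-fold and 11.0-fold higher in the Venus+ populations. Trib2 went the other way from Trib1, with 42.9 in bone marrow Venus+, 138.6 in spleen Venus+ and 542 in B220+ cells. Of the sestrin and mTORC1 genes as a whole 2 of 38 were higher and 5 lower in spleen Venus+ cells (median -0.20), and 3 of 32 higher and 10 lower in bone marrow Venus+ cells (median -0.75), against B220+ cells. Of all genes, 15.7% were higher and 16.5% lower in the spleen comparison, and 22.4% and 30.7% in the bone marrow comparison. The counts of lower genes are thus near the background, and those of higher genes are below it. Another 6 of the 40 with a probe were detected in B220+ and not in bone marrow Venus+ cells, and 0 the other way, beside 1352 and 712 of 16390 genes.

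The genes most like Asns over the 3 arrays, by Euclidean distance between log2 profiles centred on their own mean among 10769 genes detected on all arrays, were Trf, Inppl1, Pcyox1, Sspo and Sdc1, at distances of 0.107 to 0.252. This likeness rests on the B220+ spot of Asns near the background. With normexp the log2 ratio in spleen Venus+ against B220+ cells was 1.60 for Asns, 3.24 for Trf, 6.16 for Inppl1, 4.79 for Pcyox1, 2.13 for Sspo and 1.06 for Sdc1. Trf, transferrin, had signals of 1174 in bone marrow Venus+, 782 in spleen Venus+ and 12.5 in B220+ cells. Sdc1 codes for CD138, the marker used to sort the Venus+ cells, and had 219.5 in bone marrow Venus+, 127.9 in spleen Venus+ and 2.49 in B220+ cells. The 5 genes nearest to Atf4 lay at distances of 0.00605 to 0.0140 and were D5Ertd615e, Mpnd, Pitpnb, Ifrd2 and Ywhae. With the local background subtracted they were not level: in bone marrow Venus+ against B220+ cells Mpnd was at -3.57 and Ywhae at -2.93, where Atf4 was at -0.31. With 3 arrays such likeness is a description, and it carries no test.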

How the data were processed

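RNA of 3 sorted populations was hybridized to 1 Toray 3D-Gene mouse oligonucleotide array each, with Cy5 as label, per the labels. The authors deposited scanner files that hold, per the file headers, the median intensity of each spot and a local background, and a table of normalized intensity values. For that table the authors took the blank-spot mean from each spot and scaled each array to a median detected signal of 25, per the series' design text. Values given here were recomputed from the spot medians by that recipe: the mean of the middle 90% of 2736 blank spots was subtracted, and a probe was detected above that mean plus 2 SD. Detection calls differed from the deposited table for 0 probes. The deposited table is linear and uncentred, with a median of 25 in each column. Faulty spots (2, 1 and 0 on the bone marrow Venus+, spleen Venus+ and B220+ arrays) were dropped, saturated ones (1, 1 and 0) were not.

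Symbols came from the platform annotation, updated through RefSeq synonyms of GRCm38.p6: of 23473 probes 16631 had 1 symbol and 6842 none. A gene was read from its probe with the highest mean log2 signal. A fold against an undetected probe is a lower bound, set against the higher of the array's lowest detected signal and the probe's own. No test was made. The members and the 19 gene lists were chosen with earlier results of these data known. Named genes are the members, up to 4 genes at either end of each list in each comparison, genes detected on 1 array of a pair, and the 5 nearest profiles of Asns and Atf4. The number of arrays limits the precision. Python 3.11.15 with pandas 2.3.3 was used, also for quantile normalization, and R 4.3.3 with limma 3.58.1 for normexp with an offset of 50. The classification was tested on simulated data. Alternatives were other backgrounds, detection limits, scalings, fold limits and probe choices.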

Additional observations from a re-analysis of the deposited data

How the results depend on the processing

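No paired analysis was possible because each population has 1 array and the labels give no replicate numbers. Depth of signal limits Asns most, whose B220+ spot lay near the background. Values are given for spleen Venus+ against B220+, then bone marrow Venus+ against B220+, then bone marrow against spleen Venus+ cells, as far as they moved, and the cause was not tested. With normexp the log2 ratio of Asns was 1.60, 1.43 and -0.18, and the genes higher and lower were 360 and 509, 320 and 1023, and 82 and 378. With the local background subtracted it was 5.49, 5.76 and 0.27, and 778 genes were higher in the third comparison. This local background is itself bright, at a median of 56.2%, 52.7% and 60.6% of the spot for spots of 200 or more on the bone marrow Venus+, spleen Venus+ and B220+ arrays. Scaled to probes detected on all arrays, 2 members were higher in the second comparison, 1250 genes were higher and 916 lower in the third, and Asns was at 0.78 there. With quantile normalization 2 and 4 members were higher in the first and second, 1175 genes were higher and 1135 lower in the third, and Asns was at 0.64 there. With the detection limit from empty spots 3 and 2 members were higher, 1029 genes were lower in the first comparison, and Asns was at 6.35 in the first and 0.32 in the third. With background and limit both from empty spots, chosen after seeing the data, 3 and 2 members were higher, 2865 genes were higher and 1077 lower in the first, and Asns was at 7.28 and 7.64. At 1.5-fold 3 and 4 members were higher, with 3082 genes higher and 3288 lower in the first and 1578 and 3303 in the third. At 3-fold the genes higher and lower were 924 and 727, 1380 and 2060, and 118 and 584. Signs turned in the first comparison for Slc7a5 (-0.10 with normexp, -0.49 with local background), Got2 (-0.23, -0.87) and Sesn1 (0.21, 0.76), for Sesn1 in the second (0.12, 0.73) and for Gart in the third (0.26, 1.22). Among the other named genes with a difference of 2-fold or more, no sign turned in the settings run. Normexp put 60 of 108 such values under 2-fold, the local background 22 of 106.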

Other observations

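The factors related to Atf4 or able to pair with it were higher in 8 of 24 and lower in 3 in spleen Venus+ cells (median log2 ratio 0.42), and higher in 6 of 23 and lower in 6 in bone marrow Venus+ cells (median 0.07), against B220+ cells. Among all genes 15.7% were higher and 16.5% lower in the spleen comparison, and 22.4% and 30.7% in the bone marrow comparison. Xbp1, a factor of the unfolded protein response and of plasma cells, had normalized signals of 8402 in bone marrow Venus+, 7174 in spleen Venus+ and 354 in B220+ cells. Creb3l2, a membrane-bound factor of secretory cells, had 45.6 in bone marrow Venus+, 23.2 in spleen Venus+ and 2.22 in B220+ cells, 20.5-fold and 10.4-fold higher in the Venus+ populations. Its B220+ signal lay near the lowest detected one, 1.34. With normexp the log2 ratios of Creb3l2 were 0.22 and 0.21, and with the detection limit from empty spots it was not detected in B220+ cells. Atf1 had 17.8 in bone marrow Venus+, 43.9 in spleen Venus+ and 108.4 in B220+ cells.

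The cytosolic tRNA synthetases, of which Atf4 is known to activate many, were listed with their scaffold proteins Aimp1 and Aimp2 and were mostly level. Of 18 measured on both arrays 1 was higher and 1 lower in spleen Venus+ than in B220+ cells (median 0.11), beside 15.7% and 16.5% of all genes. Of 17 in bone marrow Venus+ against B220+ cells 3 were higher and 1 lower (median -0.09), beside 22.4% and 30.7%. The lower gene in bone marrow was Aimp1 (log2 ratio -1.04), which is not a synthetase. Cars, the synthetase for cysteine, was 2.01-fold higher in bone marrow and 2.26-fold higher in spleen Venus+ cells, and Yars, that for tyrosine, 2.21-fold higher in bone marrow. The log2 ratio of Yars in spleen Venus+ against B220+ cells was 0.73, but it was -2.42 with the local background subtracted and also negative with normexp. Farsb, a subunit of the phenylalanine enzyme, had 19.5 in spleen Venus+ and 104.7 in B220+ cells but lay under the detection limit in bone marrow, at least 44.5-fold lower there than in B220+ cells. The CARE was in 5 of the 15 synthetases with a promoter, beside 4.51% of all genes.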
